A study of Mus musculus with 13 samples.

Results

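Epidermal keratinocyte genes were followed across the melanomas with 12 probe sets of an Affymetrix mouse expression array, out of 22690 in the deposited table. The methods name the Mouse430_2 design, which holds more probe sets than that table, so which array was used is not settled. The 12 represent 10 genes of the stratified epidermis: Krt14 (1423935_x_at and 1460347_at), Krt5 (1424096_at), Krt15 (1422667_at), Trp63 (1418158_at), Krt10 (1452166_a_at), Krt1 (1422481_at), Lor (1420183_at and 1448745_s_at), Krt17 (1423227_at), Sfn (1448612_at) and Sprr1a (1449133_at). They were listed by identifier, and the list was made with earlier results of these data known. All 12 were found in the deposited values. The gene of each probe set was taken from that list, because the files used here give identifiers without genes.

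The tumors were cutaneous melanomas of mice that carried an HGF/SF transgene under a metallothionein promoter, on a background of 90% FVB/N and 10% C57BL/6, irradiated with UV at 3.5 days of age. RNA of each of 13 tumors was hybridized to its own array. By genotype label, 6 tumors were ARF-deficient (5 ARF heterozygous and 1 ARF null) and 7 were INK4a-deficient (4 INK4a null and 3 INK4a heterozygous). ARF and INK4a are distinct tumor suppressors encoded by the Cdkn2a locus, and every tumor carried the transgene and the UV exposure. Tumor numbers are those of the labels, of which 5, all INK4a-deficient, have a decimal ending that the labels do not explain (1.2, 2.2, 5.2, 6.2 and 7.2). The titles of the 6 ARF-deficient samples name Ink4a instead, and the genotype labels were followed. The labels do not say which mouse a tumor came from, so p-values measure only the spread between these tumors.

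The epidermis is a stratified epithelium renewed from a basal layer of dividing keratinocytes. Basal cells build their filaments from keratins 5 and 14, and cells that leave the layer switch to keratins 1 and 10, then assemble a cornified envelope. Melanoma cells arise from melanocytes, which are not keratinocytes, and a cutaneous tumor sample can hold both. In whole tumors, fewer cells of a type and less RNA per cell cannot be told apart. Every value is a log2 value relative to the median of the 13 arrays for that probe set, so it places the tumors in order but gives no level. A value of 0 means the median tumor and not absence, and the lowest values cannot be read as absence either. The labelled tumor type could not be checked, since markers of melanocytes and of other cell types are not analysed here.

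Upstream sequence is shown for genes of different layers, and any tie between it and the values in the tumors was not tested. RefSeq promoter windows were matched for 6 of the 10 genes (Krt5, Krt10, Krt14, Lor, Sfn and Sprr1a), and the 3 below begin at the annotated 5′ end of their gene. The window of Sfn does so too and is not shown. Each line gives the 250 bases before the transcription start, 5′ to 3′, on the minus strand of GRCm38.p6: Krt5 at chr15:101712906-101713155, Lor at chr3:92083143-92083392 and Sprr1a at chr3:92485882-92486131. Capitals mark TATAAA and TGANTCA, the letters of the TATA box and of AP-1 sites, searched on both strands.
Krt5: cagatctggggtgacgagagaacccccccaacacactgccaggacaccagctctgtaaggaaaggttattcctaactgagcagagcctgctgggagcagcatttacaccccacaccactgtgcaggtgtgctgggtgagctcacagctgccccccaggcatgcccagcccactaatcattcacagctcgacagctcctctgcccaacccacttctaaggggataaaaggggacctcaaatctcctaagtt
Lor: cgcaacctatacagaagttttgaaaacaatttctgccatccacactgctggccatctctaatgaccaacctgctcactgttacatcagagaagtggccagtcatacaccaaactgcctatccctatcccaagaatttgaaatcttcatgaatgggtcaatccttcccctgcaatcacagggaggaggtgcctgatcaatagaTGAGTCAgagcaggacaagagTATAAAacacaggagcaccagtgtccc
Sprr1a: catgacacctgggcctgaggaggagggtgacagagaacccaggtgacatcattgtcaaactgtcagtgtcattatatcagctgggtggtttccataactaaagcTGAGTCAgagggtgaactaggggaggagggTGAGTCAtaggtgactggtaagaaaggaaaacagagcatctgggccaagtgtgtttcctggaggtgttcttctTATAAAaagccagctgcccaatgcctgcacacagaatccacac
TATAAA began 27 bases before the start of Lor and 43 bases before that of Sprr1a. TGANTCA began 48 bases before the start of Lor, and 146 and 116 bases before that of Sprr1a. Neither motif was found in the Krt5 window, nor in those of Krt14 and Sfn. Among the 6 matched windows, 3 held TATAAA (Krt10, Lor and Sprr1a) and 2 held TGANTCA (Lor and Sprr1a). Among all 32851 windows of the same length, 12.4% held TATAAA and 6.75% held TGANTCA. A match of letters is a description and not a binding site. In the annotation, 2 protein-coding genes lie between Krt15 and Krt14 on chromosome 11 and 1 between Krt14 and Krt17, while 14 lie between Lor and Sprr1a on chromosome 3.

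The keratinocyte genes were among the most variable on the arrays. Their range from the lowest to the highest tumor was 5.32 (Lor, 1420183_at) to 9.06 (Krt14, 1423935_x_at) on the log2 scale, against a median range of 0.93 over all 22626 probe sets other than array controls. Each of the 12 had a wider range than at least 98.9% of these probe sets, which is a description, since the list was made with earlier results known. By contrast, the array controls for the 3′ ends of beta-actin and Gapdh ranged over 1.59 and 0.94.

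Krt14 and Krt5 are the keratin pair of basal keratinocytes, and Krt14 (1423935_x_at) had the widest range of the 12 probe sets. It was followed by Krt10 at 8.98, while Krt5 ranged over 7.32. Krt14 (1423935_x_at) stood at -1.55, 1.38, 1.99, -0.24 and 0.15 in ARF heterozygous tumors 8, 9, 12, 13 and 14, and at 0.00 in ARF null tumor 10. In the INK4a null tumors 1.2, 2.2, 3 and 7.2 it stood at -6.61, -6.80, 1.72 and -5.85. In the INK4a heterozygous tumors 5.2, 6.2 and 15 it stood at -6.79, 2.26 and 2.13. Thus the INK4a-deficient tumors lay at both ends, with tumors 1.2, 2.2, 5.2 and 7.2 far below every other tumor and tumors 6.2, 15 and 3 near the top. The other Krt14 probe set, 1460347_at, differed from it by at most 0.96 in any tumor. Krt5 stood at -1.75, 1.5, 1.98, 0.00 and 0.41 in the ARF heterozygous tumors in the same order, and at -1.01 in ARF null tumor 10. It stood at -3.58, -4.66, 0.75 and -4.19 in the INK4a null tumors and at -4.27, 2.66 and 2.06 in the INK4a heterozygous tumors. The order of the tumors was close to that of Krt14, and the genotypes overlapped.

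Trp63, which encodes p63, the transcription factor needed to form stratified epithelia, stood at -3.05, 1.23, 1.71, 0.68 and 0.00 in ARF heterozygous tumors 8, 9, 12, 13 and 14 and at -2.21 in ARF null tumor 10. It stood at -3.56, -3.76, 0.38 and -3.55 in INK4a null tumors 1.2, 2.2, 3 and 7.2, and at -3.41, 2.30 and 1.51 in INK4a heterozygous tumors 5.2, 6.2 and 15. In ARF tumor 8 it came close to the INK4a tumors at the low end, whereas Krt14 there was well above them. Krt15, a keratin of basal cells and of the hair follicle bulge, had another order. It stood at -2.71, 1.48, 2.47, 2.51 and 1.45 in the ARF heterozygous tumors and at -3.03 in ARF null tumor 10, against -3.43, -3.30, 0.01 and -3.12 in the INK4a null tumors and -3.42, 0.00 and 1.15 in the INK4a heterozygous tumors. For Krt15 the 4 highest values were all in ARF heterozygous tumors, and tumor 6.2, the highest for every other member, stood at the median.

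The suprabasal genes marked the same tumors as low. Krt1, a keratin of differentiating cells, stood at -2.99, 1.32, 1.08, 0.00 and 0.76 in ARF heterozygous tumors 8, 9, 12, 13 and 14 and at -0.58 in ARF null tumor 10. It stood at -6.48, -6.36, 1.18 and -6.49 in INK4a null tumors 1.2, 2.2, 3 and 7.2 and at -6.41, 1.97 and 1.33 in INK4a heterozygous tumors 5.2, 6.2 and 15. The 4 lowest tumors lay within 0.13 of each other. Krt10, the partner of Krt1 in the filament, stood at -5.62, 0.85, 0.80, 0.32 and 0.44 in the ARF heterozygous tumors and at -1.71 in ARF null tumor 10. It stood at -7.81, -4.99, 0.00 and -5.23 in the INK4a null tumors and at -5.00, 1.18 and 0.65 in the INK4a heterozygous tumors. Krt10 was the only member for which ARF tumor 8 was among the 4 lowest.

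Lor encodes loricrin, the main protein of the cornified envelope. Its probe set 1448745_s_at stood at -4.76, 1.54, 1.61, 1.70 and 1.17 in ARF heterozygous tumors 8, 9, 12, 13 and 14 and at -1.93 in ARF null tumor 10, against -6.10, -6.09, 0.00 and -6.10 in INK4a null tumors 1.2, 2.2, 3 and 7.2 and -6.06, 2.62 and 1.22 in INK4a heterozygous tumors 5.2, 6.2 and 15. Its 4 lowest tumors lay within 0.04 of each other. Probe set 1420183_at followed it over the 13 tumors (Pearson's r = 0.994, Spearman's rho = 0.92) on a narrower scale, and the values of the 2 probe sets differed by up to 3.06 in a tumor.

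The remaining members were grouped as stress and squamous genes, a label that names the group and not a state of the epidermis in these tumors. Krt17, a keratin of the hair follicle that is induced in wounded epidermis, stood at -3.37, 1.82, 2.46, 0.00 and 0.08 in ARF heterozygous tumors 8, 9, 12, 13 and 14 and at -1.82 in ARF null tumor 10. It stood at -4.77, -5.04, 1.62 and -4.60 in INK4a null tumors 1.2, 2.2, 3 and 7.2 and at -4.91, 3.54 and 2.50 in INK4a heterozygous tumors 5.2, 6.2 and 15. Sprr1a, a small proline-rich protein cross-linked into the envelope, stood at -3.15, 1.92, 2.86, 0.05 and 0.00 in the ARF heterozygous tumors and at -1.14 in ARF null tumor 10. It stood at -3.87, -3.50, 2.09 and -3.53 in the INK4a null tumors and at -4.42, 4.18 and 3.38 in the INK4a heterozygous tumors. For both genes INK4a tumors 6.2 and 15 were the highest of all. Sfn, which encodes the epithelial protein 14-3-3 sigma, had the smallest drop at the low end. It stood at -0.90, 1.20, 2.50, 0.00 and 0.87 in the ARF heterozygous tumors and at -0.39 in ARF null tumor 10, against -1.83, -1.59, 1.54 and -2.14 in the INK4a null tumors and -1.77, 4.60 and 2.82 in the INK4a heterozygous tumors.

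**Figure D1:**
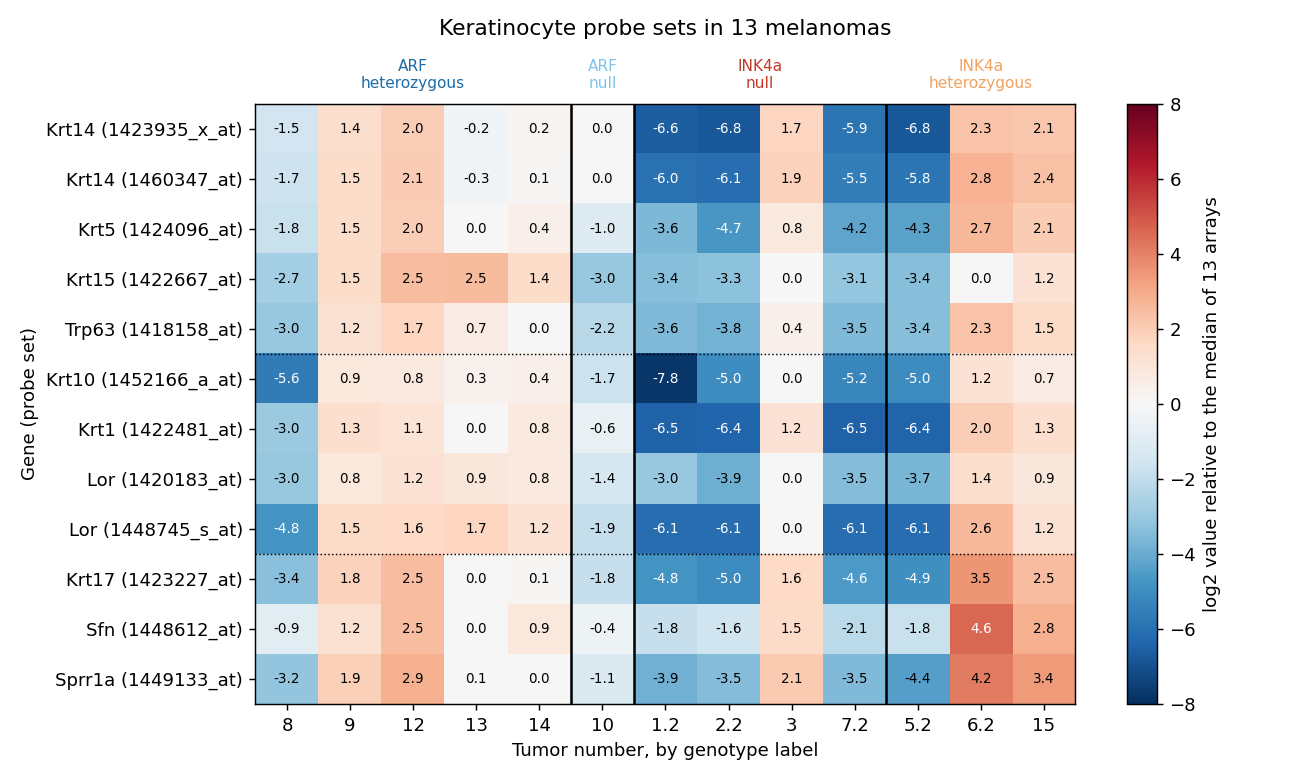
Log2 values, relative to the median of the 13 arrays, of the 12 probe sets (rows, with dotted lines between basal, suprabasal and stress genes) in each tumor (columns, by genotype label); blue is below and red above the median. Tumors 1.2, 2.2, 7.2 and 5.2 are at least 1 below the median for all 12 probe sets, and tumor 6.2 has the highest value for 11 of them.

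The 12 probe sets were reduced to a keratinocyte level per tumor, the mean over the 10 genes after averaging probe sets of the same gene. The 4 lowest levels were -4.62 in INK4a null tumor 1.2, -4.48 in INK4a heterozygous tumor 5.2, -4.47 in INK4a null tumor 2.2 and -4.33 in INK4a null tumor 7.2. They lay within 0.29 of each other, and the next tumor, ARF heterozygous tumor 8 at -2.90, was 1.43 above them. ARF null tumor 10 followed at -1.36, and all others were above 0. ARF heterozygous tumors 13 and 14 stood at 0.46 and 0.51, INK4a null tumor 3 at 0.94 and ARF heterozygous tumor 9 at 1.39. The 3 highest were INK4a heterozygous tumor 15 at 1.87, ARF heterozygous tumor 12 at 1.93 and INK4a heterozygous tumor 6.2 at 2.49. The 4 lowest tumors of the level were also the 4 lowest for 11 of the 12 probe sets. Both ends of the order were INK4a-deficient tumors with a decimal ending in the label.

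Counting members at least 1 above or below the median gave the same picture. All 12 were at least 1 below it in tumors 1.2, 2.2, 5.2 and 7.2, with 11 in ARF tumor 8 and 8 in ARF tumor 10, and none in the other 7 tumors. At least 1 above it were 11 members in tumors 12 and 6.2, 10 in tumors 9 and 15, 6 in tumor 3 and 2 in each of tumors 13 and 14. In tumor 13 these 2 were Krt15 and Lor (1448745_s_at), and so they were in tumor 14. By genotype, 2 of 6 ARF-deficient tumors and 4 of 7 INK4a-deficient tumors had at least 6 members 1 below the median, while 2 of 6 and 3 of 7 had at least 6 members 1 above it.

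The layers did not move by equal amounts. The mean of the suprabasal genes was below that of the basal genes by 1.88 in ARF heterozygous tumor 8, where the basal mean was -2.28 and the suprabasal mean -4.17. ARF null tumor 10, also low in all 3 groups of genes, had a basal mean of -1.56 and a suprabasal mean of -1.32. Among the 4 lowest tumors the suprabasal mean was -6.29 in tumor 1.2 and between -5.50 and -5.43 in tumors 7.2, 2.2 and 5.2, with basal means between -4.54 and -4.14. At the top, the stress and squamous genes had a mean of 4.10 in tumor 6.2 and 2.90 in tumor 15, where the basal means were 1.87 and 1.74. A stress mean above the basal mean was not particular to the top. The gap was 0.72, 0.65, 1.17 and 0.72 in tumors 1.2, 5.2, 2.2 and 7.2 and 0.45 in tumor 10, against 1.16 in tumor 15. In tumors 8, 13 and 14 the stress mean was below the basal mean. In ARF tumor 13 the stress mean was 0.02 with a basal mean of 0.73, for which Krt15 was at 2.51 and Krt14 (1423935_x_at) at -0.24. Because each gene is centred on its own median tumor and spans its own range, such gaps between layers are not ratios of RNA.

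**Figure D2:**
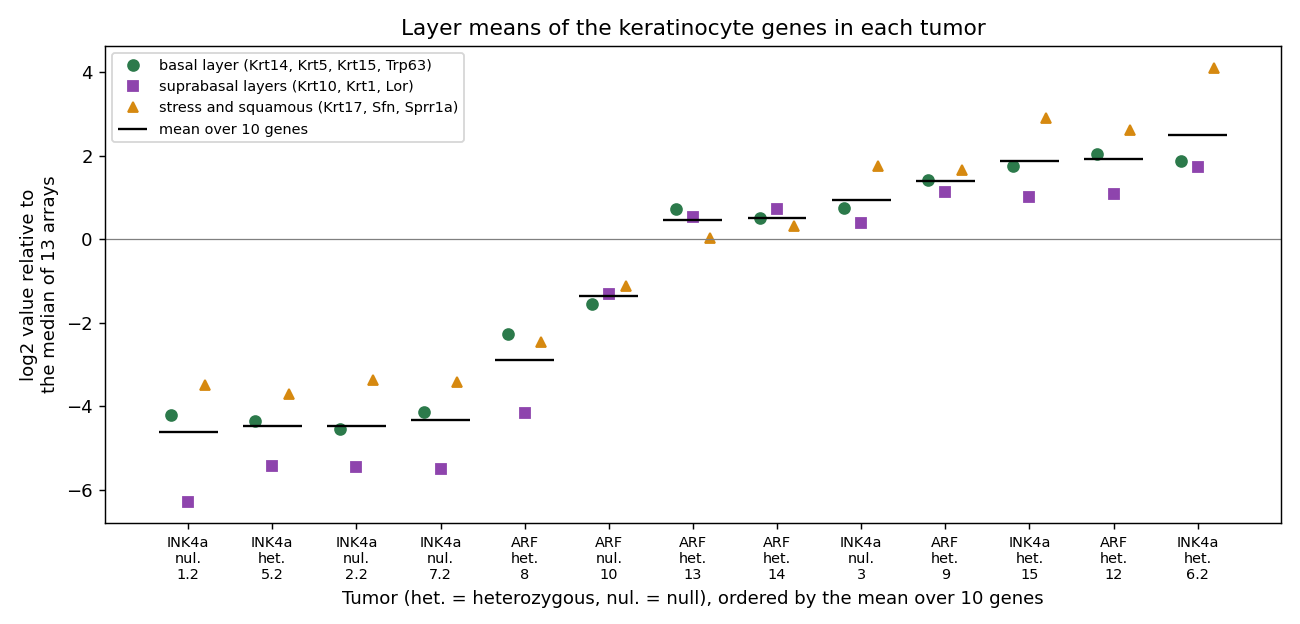
Mean log2 value, relative to the median of the 13 arrays, of the basal, suprabasal and stress genes in each tumor (points), with the mean over all 10 genes (bar); tumors run from the lowest level, -4.62 in tumor 1.2, to the highest, 2.49 in tumor 6.2. The suprabasal points lie lowest in the 5 tumors on the left. The stress points lie highest in the 5 on the right and also in tumors 1.2, 5.2, 2.2, 7.2 and 10.

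Across tumors the members followed each other closely. Over the 66 pairs of probe sets, Pearson's r across the 13 tumors was 0.72 to 0.997 with a median of 0.93, and Spearman's rho was 0.67 to 0.99 with a median of 0.92. Since the 4 lowest tumors form a separate cluster, the pairs were also compared over the other 9 tumors, where r was 0.41 to 0.997 with a median of 0.89, and rho had a minimum of 0.067 (Krt14 with Krt15) and a median of 0.87. These correlations are descriptions over arrays that each share an RNA sample. By r over the 9 tumors, the closest pairs of different genes were Krt17 with Sprr1a, Krt5 with Krt17, Krt14 with Sprr1a and Krt5 with Sprr1a, followed by Krt10 with Lor. Krt15 was the least alike, with a median r to the other probe sets of 0.64 over the 9 tumors, against 0.84 over all 13, and a median rho of 0.25 over the 9. The lowest pair, Krt15 with Sfn, had r = 0.41 over the 9 tumors and 0.72 over the 13.

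Many other probe sets followed the same order of tumors. Among 10303 further probe sets with a range of at least 1, 211 (2.05%) had r of at least 0.9 with the keratinocyte level over the 13 tumors, and 571 (5.54%) had at least 0.8. In the opposite direction, 86 had r of -0.8 or less and 5 had -0.9 or less. The most alike were 1452732_at and 1420550_at, both with r = 0.997 over 13 tumors and r = 0.99 over the 9 outside the low cluster. Among the 304 further probe sets with a range of at least 5, 135 (44.4%) had r of at least 0.8. Their genes are not named, since no table here links these identifiers to genes.

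The level also ran along the main axis of variation of the arrays. In a principal component analysis from which the 12 members were left out, the first component held 40.7% of the variance. Its score correlated with the keratinocyte level with r = 0.95 over the 13 tumors and 0.95 over the 9 outside the low cluster (rho = 0.98 and 0.95). The score was lowest in tumor 1.2, at -64.4, and highest in ARF heterozygous tumor 12, at 73.7, with tumor 6.2 next at 60.5. The 211 probe sets with r of at least 0.9 to the level stayed in this principal component analysis. Values were not scaled, so probe sets with a wide range weighed more. The component is therefore not separate from the level. Both measures come from the same arrays, so this is a description, with no test.

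**Figure D3:**
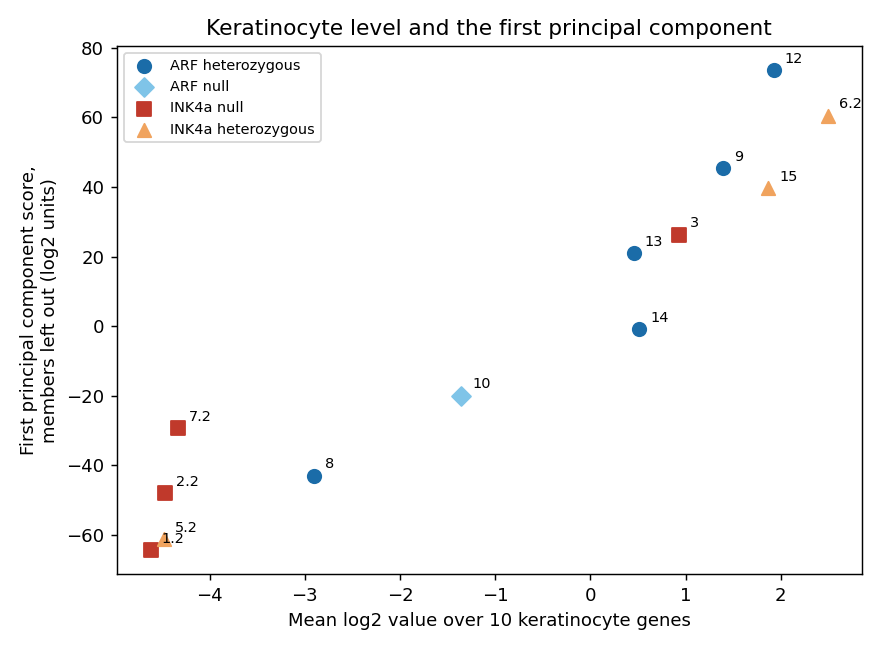
Keratinocyte level (mean log2 value over 10 genes, x axis) against the score on the first principal component of all other probe sets (y axis, log2 units), with the 13 tumors as points labelled by number and marked by genotype. Points run from tumor 1.2 at -4.62 and -64.4 at the lower left to tumors 12 and 6.2 at the upper right.

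Whether loss of ARF or of INK4a went with a different keratinocyte signal was compared over all 13 tumors with limma, fitted over 22626 probe sets with Benjamini-Hochberg adjustment. The keratinocyte level averaged 0.00 ± 1.81 in ARF-deficient tumors (SD, n = 6) and -1.80 ± 3.37 in INK4a-deficient tumors (SD, n = 7). Its range was -2.90 to 1.93 in the ARF-deficient tumors, within the range of -4.62 to 2.49 in the INK4a-deficient tumors. All 12 probe sets had a higher mean in ARF-deficient tumors, by 0.31 (Sfn) to 3.14 (Krt14, 1423935_x_at), with a median difference of 1.94 against 0.01 over all probe sets. None of the 12 passed an adjusted p of 0.05 in limma, nor an unadjusted one. Over all probe sets, 0% passed after adjustment and 4.93% (1115) at an unadjusted p under 0.05.

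Krt14 (1423935_x_at) averaged 0.29 ± 1.25 in ARF-deficient tumors and -2.85 ± 4.58 in INK4a-deficient tumors (SD, n = 6 and 7), a log2 difference of 3.14 (SE 1.79, limma adjusted p = 0.891). Krt1 averaged -0.07 ± 1.59 and -3.04 ± 4.24 in the same order, a difference of 2.97 (SE 1.70, limma adjusted p = 0.891). Krt15 averaged 0.36 ± 2.55 and -1.73 ± 2.02, a difference of 2.09 (SE 1.17, limma adjusted p = 0.891). The smallest difference, that of Sfn, had a 95% confidence interval of -2.11 to 2.74. Two-sided exact permutation of the 2 genotypes gave p from 0.119 (Krt15) to 0.80 (Sfn), unadjusted. By the exact Mann-Whitney test that the methods name, Krt15 alone was under 0.05 unadjusted (p = 0.0350, adjusted p = 0.932), as were 3.46% of all probe sets.

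The direction of this comparison rested on INK4a-deficient tumors with a decimal ending, though tumor 6.2, which also has one, went the other way. Without tumor 6.2 alone the median difference was 2.45, against 1.94 with all tumors. Without tumor 1.2, 2.2, 5.2 or 7.2 alone it was 1.44 to 1.60. With only tumors without such an ending (6 ARF-deficient, 2 INK4a-deficient), all 12 differences were below 0, at -2.65 to -0.22 with a median of -1.27, and none passed (limma adjusted p = 0.9997). What the ending stands for is not given, and since all 5 such tumors are INK4a-deficient, its part cannot be told apart from genotype in them. With heterozygous tumors only (5 ARF, 3 INK4a), the differences ran from -1.15 to 1.79 and 4 of 12 were below 0.

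Within the INK4a-deficient tumors, null tumors were set against heterozygous tumors, with the ARF-deficient tumors as a further group of the fit so that all 13 arrays gave the spread. The keratinocyte level averaged -3.12 ± 2.71 in INK4a null tumors (SD, n = 4) and -0.04 ± 3.86 in INK4a heterozygous tumors (SD, n = 3). Among the null tumors, 3 were in the low cluster and tumor 3 was at 0.94, and among the heterozygous tumors, tumor 5.2 was in the low cluster and tumors 15 and 6.2 were at 1.87 and 2.49. All 12 probe sets had a lower mean in null tumors, by log2 differences of -3.83 (Lor, 1448745_s_at) to -1.70 (Krt15), with a median of -3.35 against 0.04 over all probe sets. None of the 12 passed in limma after adjustment, nor at an unadjusted p under 0.05, against 0.128% (29) and 14.1% (3185) of all probe sets. The closest was Sfn, at -1.01 ± 1.71 in null tumors and 1.88 ± 3.29 in heterozygous tumors, a difference of -2.89 (SE 1.37, limma adjusted p = 0.372, 95% confidence interval -5.87 to 0.09). Two-sided exact permutation of these 7 tumors gave unadjusted p of 0.171 to 0.343 for the 12, where 0.0286 is the smallest the design allows. The exact Mann-Whitney test cannot go below 0.0571 for 4 against 3 untied tumors, so it could not pass 0.05 for untied values.

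The size of the differences and the number of members that passed changed when certain tumors were left out. The median difference was -5.70 without tumor 5.2, -4.81 without tumor 3, -2.22 without tumor 15 and -1.90 without tumor 6.2, and that of Krt15 was -0.75 without tumor 15. Without heterozygous tumor 5.2, 11 of 12 members had an unadjusted p under 0.05 (18.8% of all probe sets) and 1, Sfn, passed after adjustment (difference -4.72, limma adjusted p = 0.0498, against 2.74% of all probe sets). Without null tumor 3, 11 of 12 had an unadjusted p under 0.05 (13% of all probe sets) and none passed after adjustment. Leaving out tumor 15, 6.2, 1.2, 2.2 or 7.2 instead gave 0 of 12 at an unadjusted limma p under 0.05. Over all 22626 probe sets, 1822 to 3557 were under 0.05 in those 5 fits. The members follow each other across tumors, so such counts are not independent. When limma weighted the arrays by their residual spread, heterozygous tumors 5.2, 6.2 and 15 received weights of 0.44, 0.91 and 3.48. Null tumors 1.2, 2.2, 3 and 7.2 received 0.60, 2.21, 0.74 and 1.16, and ARF heterozygous tumor 8 received 0.44. Tumors 15 and 2.2 thus weighed most in their groups. In this weighted fit 11 of 12 members passed after adjustment, all but Krt15, against 13.9% of all probe sets.

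**Figure D4:**
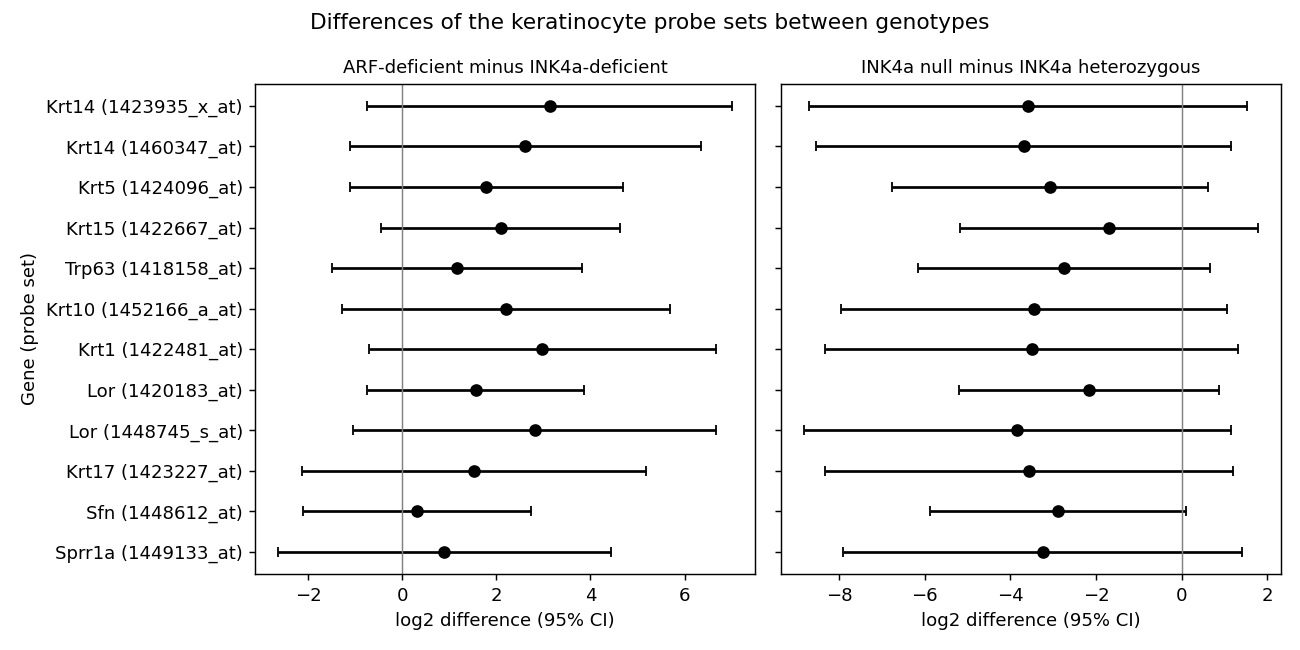
Log2 difference (point) with its 95% confidence interval from limma (bar) for each of the 12 probe sets, ARF-deficient minus INK4a-deficient tumors on the left and INK4a null minus INK4a heterozygous tumors on the right. All points on the left are above 0 and all on the right below 0, and every interval includes 0.

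RNA quality was read from the array controls of beta-actin, as the log2 value at the 3′ end minus that at the 5′ end, which ranged from -0.54 to 1.49. It was -0.54, -0.46, 0.14 and 0.94 in tumors 1.2, 5.2, 2.2 and 7.2, which had the lowest keratinocyte levels, and -0.37, 0.81 and -0.39 in tumors 6.2, 12 and 15, which had the highest. The highest ratios were 1.49 and 1.09, in ARF heterozygous tumors 13 and 9. Each control probe set is centred on its own median tumor, so these ratios only compare tumors, and their sign alone has no meaning. For Gapdh the same difference was -0.65, -0.61, -0.18 and -0.07 in tumors 1.2, 5.2, 2.2 and 7.2. It was -0.55, 0.38 and -0.74 in tumors 6.2, 12 and 15, and 1.41 and 0.23 in tumors 13 and 9. Only the beta-actin ratio was used as a covariate, and with it no member passed the adjusted threshold in either comparison. For ARF-deficient minus INK4a-deficient tumors, the covariate moved the median difference from 1.94 to 1.45 and that of Krt15 from 2.09 to 1.34. Over all probe sets, 664 had an unadjusted limma p under 0.05 with the covariate, against 1115 without it. For INK4a null minus INK4a heterozygous tumors, the covariate moved the median difference to -4.33 and that of Krt15 to -3.07, and 4 of 12 members (Trp63, Krt10, Lor 1448745_s_at and Sfn) had an unadjusted p under 0.05, against 14.1% of all probe sets.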

How the data were processed

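RNA from 13 melanomas was hybridized to Affymetrix arrays, 1 tumor per array. The authors deposited log values made in GeneSpringGX, read here as log2 because the base is not stated. Each of 22690 probe sets was centred on the median of the 13 arrays, so no level and no filter on low values was possible. The sources used here do not give the summarization or normalization. The number of arrays limits the precision. A deposited list of probe sets that the authors selected as changed, none of them a member, was not used.

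The 64 control probe sets were left out, which left 22626. Groups followed the genotype labels. The test of each difference was limma 3.58.1 under R 4.3.3 (eBayes after lmFit, no trend, two-sided, Benjamini-Hochberg over all probe sets, threshold 0.05), which was tested on simulated data. Correlations, levels and principal components were computed in Python 3.11.15. Named genes were all 12 members, and for similar probe sets counts and 2 identifiers. The members, lists and tests were chosen with earlier results of these data known. As no table pairs probe sets with genes, further epidermal gene lists and markers of other cell types are not analysed here. Alternatives covered the variance model, normalization, array weights, RNA quality, zygosity, label endings, the test and leaving out each tumor.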

Additional observations from a re-analysis of the deposited data

Results flagged for a closer look

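In the INK4a null tumors, tumor 3 stood apart from the other 3 by Dixon's test for 9 of the 12 probe sets and for the keratinocyte level, where it was at 0.94 and the nearest other tumor at -4.33. Tumor 3 stood at 1.72 and 1.87 for the Krt14 probe sets 1423935_x_at and 1460347_at, 0.00957 for Krt15, 0.38 for Trp63 and 1.18 for Krt1. It stood at 0.00 for Lor (1448745_s_at), 1.62 for Krt17, 1.54 for Sfn and 2.09 for Sprr1a. For Lor the nearest other null tumor was at -6.09.

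Among the ARF heterozygous tumors, tumor 8 stood apart on the low side for Krt15 at -2.71, Krt10 at -5.62 and Lor at -3.02 (1420183_at) and -4.76 (1448745_s_at). The nearest other tumors were at 1.45, 0.32, 0.80 and 1.17. Among the 52 combinations of a value and a group that were tested, 14 stood apart, and chance alone gives about 1 in 20 for independent values. Of the 14, 10 were within the INK4a null tumors and 4 within the ARF heterozygous tumors. None stood apart within all ARF-deficient or all INK4a-deficient tumors. The members follow each other, so the combinations are not independent.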

How the results depend on the processing

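No member passed the adjusted threshold for ARF-deficient minus INK4a-deficient under any alternative run, leaving out each tumor included. At an unadjusted limma p under 0.05, 3 of 12 members passed with array weights, without tumor 15 and without tumor 6.2. The count was 2 without tumor 3, 1 without tumor 8 or 10, and 0 in the other limma fits. Over all 22626 probe sets, 1293, 973, 1037, 1807, 1772 and 1363 passed in the fits named, in that order. All 12 differences turned below 0 with labels without a decimal ending: -1.64 and -1.84 for Krt14 (1423935_x_at and 1460347_at), -1.22 for Krt5, -0.22 for Krt15, -1.21 for Trp63, -1.15 for Krt10, -1.32 for Krt1, -0.57 and -0.72 for Lor (1420183_at and 1448745_s_at), -2.20 for Krt17, -1.63 for Sfn and -2.65 for Sprr1a. With heterozygous tumors only, Trp63 was at -0.0145, Krt17 at -0.18, Sfn at -1.15 and Sprr1a at -0.71, and with zygosity as a covariate Sfn was at -0.62 and Sprr1a at -0.18. The median of the 12 was 1.14 with quantile normalization, 0.93 with zygosity as a covariate and 0.49 with heterozygous tumors only, against 1.94. Sfn also turned below 0 without tumor 5.2 (-0.0198), 1.2 (-0.0297), 7.2 (-0.0801) or 12 (-0.0765), and reached 0.746 without tumor 15 and 1.04 without tumor 6.2. The cause was not tested. For INK4a null minus INK4a heterozygous all 12 stayed below 0 throughout, with medians of -2.08 with quantile normalization and -5.33 with array weights against -3.35, and with 11 members passing under array weights and 0 to 1 when each tumor was left out. The tumors with at least 6 members high numbered 5, and 2 with a threshold of 2 in place of 1. Spearman in place of Pearson correlation gave 328 in place of 211 similar probe sets. Read as natural log, every log2 value would be larger by the same factor, and the order of the tumors would stay. No paired analysis was possible because no tumor number occurs in more than 1 group. The sample titles as labels and the further gene lists were not run.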
